A study of Mus musculus with 23 samples.

Results

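Major histocompatibility complex (MHC) genes, whose products present peptides to T cells, were read from bulk RNA-Seq of bone from 23 female mice. They were the genes whose symbol in the deposited TPM table (per-million transcript values) began with H2-, together with Cd74, Ciita, B2m, Tap1, Tap2, Tapbp, and Nlrc5. Of the 17644 genes listed there 40 matched, and the 37 that had counts in 5 or more libraries were kept. They comprised 2 classical class I genes, 5 class I loading and regulatory genes, 18 nonclassical class I genes, 4 classical class II genes, 7 class II accessory and regulatory genes, and H2-Ke6, which is named for its place in the region but encodes a steroid dehydrogenase. H2-Bl, H2-M5, and H2-T18 had counts in fewer than 5 libraries. Of the 37 genes 33 had at least 10 counts in at least 5 mice and were tested, while H2-M1, H2-M2, H2-M11, and H2-Q2, with at most 19 counts in any mouse, were not.

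RNA came from femur and tibia depleted of marrow, taken at 11 weeks of age from mice labelled C57BL6/N, with 1 library per mouse. Type 1 diabetes (T1D) had been induced with streptozotocin (100 mg/kg), which destroys the insulin-producing cells of the pancreas, and had lasted 3 weeks, while Control mice had received saline. WT mice formed a Control group of 5 and a T1D group of 6, and KO mice a Control group of 6 and a T1D group of 6, where KO stands for the label Sarm1-KO, a knockout in every cell type of SARM1, an enzyme that degrades NAD. Per the study's methods, WT mice were littermates from heterozygous pairs or were bought, and which mouse was which was not given in the sources used here.

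Class I molecules display peptides from inside the cell to CD8 T cells. A heavy chain such as H2-K or H2-D pairs with the B2m light chain, the Tap1 and Tap2 transporter supplies peptides, tapasin (Tapbp) helps to load them, and Nlrc5 drives transcription of these genes. Class II molecules display ingested material to CD4 T cells, are made mainly by B cells, dendritic cells, and macrophages, and depend on the transactivator Ciita. The invariant chain Cd74 escorts them to endosomes, where H2-DM exchanges the peptide and H2-DO restrains H2-DM. Interferon gamma induces both classes.

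Total counts were 16938101 to 20135592 per mouse. Sarm1 RNA did not separate the genotypes, with 1.17 ± 0.403 (SD) CPM (per-million library counts) in WT Control and 0.799 ± 0.503 in KO Control, 0.687 ± 0.293 in WT T1D and 1.19 ± 0.259 in KO T1D, so the KO groups are named by their labels. WT T1D mice A3905 and A3906 stood apart from the other 21 mice. Their summed TPM over 7 osteoblast and osteocyte markers was 1309 and 1091 against 25025 to 59087. Dendritic cell marker sums were 18.1 and 17.7 TPM against 43.4 to 68.0, and B cell marker sums were 130.4 and 163 TPM against 361 to 939. T and NK cell marker sums were 116 and 107 TPM against 123 to 231. Erythroid marker sums were higher, 471749 and 470359 TPM against 235562 to 410128. Macrophage and neutrophil marker sums lay within the range of the others. TPM values share a fixed total, so these sums do not vary independently. The labels gave IDs beginning with A17 to WT Control A1757 and to WT T1D A1758, A1764, and A1787, and IDs from A36 to A39 to all other mice. B cell marker sums were highest in these 4 mice, from 735 to 939 TPM. What the ID series stands for was not given in the sources used here. In bulk bone, fewer cells of a type and less RNA per cell cannot be told apart.

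Levels can be compared between genes as TPM, which corrects for transcript length. In WT Control mice B2m was the most abundant at 3659 ± 418 TPM (SD, n = 5), followed by Cd74 at 1036 ± 165 TPM and the heavy chain H2-D1 at 878 ± 77.7 TPM. H2-K1 at 438 ± 31.5, H2-Aa at 430.2 ± 64.2, and H2-Ab1 at 367 ± 49.95 TPM followed, and these neighbors did not differ beyond their spread. H2-Eb1, whose alpha chain partner is not made in C57BL/6 mice, was at 102 ± 14.7 TPM. The H2-DM chains H2-DMa and H2-DMb1 were at 56.1 ± 8.31 and 57.4 ± 5.42 TPM, also within their spread. H2-DO was scarcer, with H2-Oa at 16.7 ± 2.57 and H2-Ob at 13.8 ± 3.82 TPM. The regulators Nlrc5 and Ciita were at 6.34 ± 0.469 and 5.28 ± 0.707 TPM. Among nonclassical class I genes the highest were H2-T23 at 90.5 ± 9.13 and H2-Q4 at 77.1 ± 6.16 TPM, which overlapped in range.

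Several of these genes are near copies. In GENCODE M21 transcripts, 21 of the 35 genes that had transcripts under the same name shared no stretch of 100 bases, the read length, with another of them. H2-DMb1 shared 11.3% of its stretches with H2-DMb2. The class I genes H2-Q6, H2-Q7, H2-Q1, and H2-D1 shared 9.87%, 8.97%, 7.80%, and 3.44% with others, and H2-K1 0.957%. H2-Q6 had counts in 8 libraries, and how reads were divided among H2-Q6, H2-Q7, H2-Q8, and H2-Q9 is uncertain, the last 2 having no transcript under their names there.

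In the RefSeq annotation of GRCm38.p6, 33 of the 37 genes lay on chromosome 17, among them Tapbp (chr17:33919478-33929290), H2-K1 (chr17:33996012-34000619), H2-Ab1 (chr17:34263227-34269418), and H2-D1 (chr17:35263094-35267497). H2-Q8 and H2-Q9 are counted among the 33, but were listed at positions far from the other H2-Q genes, which are not used here. The other 4 were B2m (chr2:122147687-122153082), Nlrc5 (chr8:94434335-94527272), Ciita (chr16:10480014-10531064), and Cd74. Promoter windows from 250 bases before to 50 after the start were held for 27 genes and searched on both strands. An interferon regulatory factor core element (TTTCNNTTC) was in 8 of the 27 against 7.56% of 27025 promoters, namely in 2 of 2 classical and 6 of 13 nonclassical class I windows and in 0 of 3 classical class II windows. A CCAAT box (ATTGG or CCAAT) was in 25 of 27 against 37.9%, and a gamma interferon-activated site (TTCNNNGAA) in 3 of 27 against 8.47%. The windows of both classical class I heavy chains, of H2-Aa and H2-Eb1, and of H2-Ob are printed to compare the classes, in the direction of the gene and with matches in capitals, which do not overlap. They span chr17:34000298-34000597 (minus strand), chr17:35262844-35263143 (plus strand), chr17:34287774-34288073 (minus strand), chr17:34305617-34305916 (plus strand), and chr17:34238655-34238954 (plus strand) of GRCm38.p6. For H2-K1 the start that defines the window lies inside the gene span given above, so its positions are counted from that start.
H2-K1: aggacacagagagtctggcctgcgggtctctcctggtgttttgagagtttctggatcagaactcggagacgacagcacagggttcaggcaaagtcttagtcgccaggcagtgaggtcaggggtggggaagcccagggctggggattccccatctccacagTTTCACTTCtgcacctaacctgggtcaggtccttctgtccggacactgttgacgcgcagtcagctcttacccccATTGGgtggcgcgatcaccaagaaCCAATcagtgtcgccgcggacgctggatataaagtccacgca
H2-D1: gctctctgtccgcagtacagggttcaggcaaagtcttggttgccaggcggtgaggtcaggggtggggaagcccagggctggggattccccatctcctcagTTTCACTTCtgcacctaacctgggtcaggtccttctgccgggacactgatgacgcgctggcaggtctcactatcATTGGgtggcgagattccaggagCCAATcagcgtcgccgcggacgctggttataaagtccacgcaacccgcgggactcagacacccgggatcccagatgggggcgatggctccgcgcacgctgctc
H2-Aa: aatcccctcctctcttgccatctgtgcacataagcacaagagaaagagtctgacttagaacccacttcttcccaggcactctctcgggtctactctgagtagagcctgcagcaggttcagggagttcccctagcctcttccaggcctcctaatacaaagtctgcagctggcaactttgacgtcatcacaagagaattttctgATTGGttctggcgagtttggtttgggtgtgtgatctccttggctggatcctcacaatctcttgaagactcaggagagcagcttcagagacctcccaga
H2-Eb1: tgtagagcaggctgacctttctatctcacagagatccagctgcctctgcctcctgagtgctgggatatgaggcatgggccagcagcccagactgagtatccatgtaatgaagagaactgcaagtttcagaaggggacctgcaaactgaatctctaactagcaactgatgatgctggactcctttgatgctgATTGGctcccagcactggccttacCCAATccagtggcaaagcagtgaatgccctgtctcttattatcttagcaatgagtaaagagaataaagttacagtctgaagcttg
H2-Ob: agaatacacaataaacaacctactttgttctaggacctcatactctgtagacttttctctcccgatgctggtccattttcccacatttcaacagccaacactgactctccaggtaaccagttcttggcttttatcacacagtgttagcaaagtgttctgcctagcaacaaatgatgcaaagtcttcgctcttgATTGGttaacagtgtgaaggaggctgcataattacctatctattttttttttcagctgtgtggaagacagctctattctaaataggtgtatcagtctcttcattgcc
The same letters, TTTCACTTC, lay 90 to 82 bases before the start in H2-K1 and 150 to 142 bases before it in H2-D1. H2-Aa held a single match, ATTGG, 48 to 44 bases before the start. A match describes letters and is not a binding site.

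The first comparison asked how T1D changed these genes in WT bone. Class I genes and the main class II chains mostly had lower values in WT T1D than in WT Control, and few passed the test. With edgeR's quasi-likelihood test and Benjamini-Hochberg adjustment over 14364 genes, 2 of the 33 had an adjusted p under 0.05, Nlrc5 and H2-Q1, and both fell. Of all genes tested 2.33% passed, 0.828% in the lower direction. At an unadjusted p under 0.05, 14 of the 33 were lower and 0 higher, against 11.2% of all genes lower. A log2 fold change below 0 was found for 27 of the 33 against 51.9% of all genes. The median was -0.30 over the 33 and -0.011 over all genes. By role the medians were -0.34 for classical class I, -0.30 for class I loading and regulation, -0.32 for nonclassical class I, -0.52 for classical class II, and -0.14 for class II accessory genes. Every WT T1D mouse was below every WT Control mouse for 3 genes, Nlrc5, H2-Q1, and H2-Q4, against 0.877% of all genes. Without A3905 and A3906, 0 of the 33 and 0 of all 14317 genes tested passed, and 7 of the 33 were lower at an unadjusted p under 0.05, against 5.62% of all genes.

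Nlrc5, the transactivator of class I genes, had 31.0, 33.02, 30.5, 28.5, and 33.4 CPM in the 5 WT Control mice. In the 6 WT T1D mice it ranged from 13.4 to 28.0 with a median of 20.3. KO Control mice had 23.9 to 38.6 with a median of 28.8, and KO T1D mice had 25.9 to 36.2 with a median of 28.3. All WT T1D mice were thus below WT Control, and the KO groups overlapped each other. T1D in WT gave a log2 fold change of -0.64 ± 0.14 (SE, adjusted p = 0.0367 with edgeR). Without A3905 and A3906 it was -0.47 with an adjusted p of 0.286. The call was also lost on leaving out any 1 of WT Control A3767, A3903, A3904, and A3907 and WT T1D A1787, A3905, and A3906, with log2 fold changes of -0.68 to -0.54 and adjusted p of 0.0515 to 0.115. It was kept in 23 of 31 alternatives, among them DESeq2's Wald test (adjusted p = 0.0031).

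The classical heavy chains, which carry the peptide groove, did not pass with edgeR. H2-K1 had 484, 443, 418, 505, and 511 CPM in WT Control and 267 to 436 with a median of 383 CPM in WT T1D. Of the 6 WT T1D values 5 lay under the WT Control range. The log2 fold change was -0.40 ± 0.12 (SE, adjusted p = 0.0599 with edgeR). DESeq2's Wald test with all 23 mice called H2-K1 (adjusted p = 0.0226), where 6.98% of all genes passed. H2-D1 had 1086, 922, 826, 1056, and 1102 CPM in WT Control and 669 to 1014 with a median of 827 CPM in WT T1D, where 3 of 6 lay under the WT Control range. Its log2 fold change was -0.29 ± 0.10 (adjusted p = 0.111), and DESeq2 did not call it (adjusted p = 0.0713). For both genes A3905 and A3906 were the lowest of all 23 mice.

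**Figure D1:**
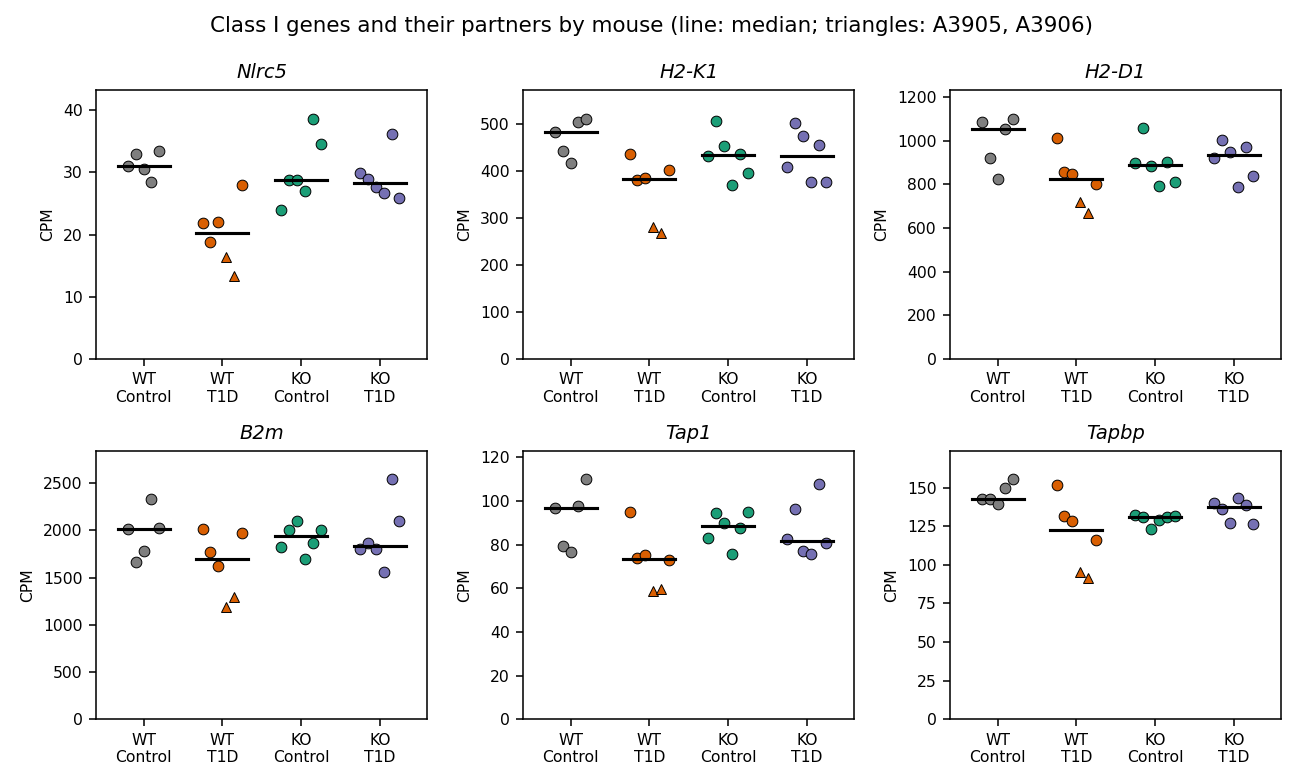
CPM of class I genes in each of the 23 mice, by group, with a line at each group's median and triangles for A3905 and A3906. For Nlrc5 the WT T1D mice (13.4 to 28.0 CPM) lie below the WT Control mice (28.5 to 33.4 CPM).

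The loading genes had lower WT T1D values too, and none passed with edgeR. Tapbp, the loading chaperone, had 143, 142, 139.5, 150.0, and 155 CPM in WT Control and 91.3 to 152 with a median of 122 CPM in WT T1D, with 5 of 6 values under the WT Control range. Its log2 fold change was -0.30 ± 0.092 (SE, adjusted p = 0.0708 with edgeR), and DESeq2's Wald test called it (adjusted p = 0.0392). For the transporter subunits, 5 of 6 WT T1D values lay under the WT Control range for Tap1 and 3 of 6 for Tap2. Tap1 had 96.7, 79.4, 76.4, 97.5, and 109.9 CPM in WT Control and 58.9 to 94.8 with a median of 73.3 CPM in WT T1D, a log2 fold change of -0.34 ± 0.12 (adjusted p = 0.0963). Tap2 had 79.2, 80.8, 63.0, 75.4, and 68.3 CPM in WT Control and 55.0 to 69.6 with a median of 63.8 CPM in WT T1D, a log2 fold change of -0.21 ± 0.076 (adjusted p = 0.107). B2m, the light chain shared by all class I molecules, had 2011, 1660.2, 1776, 2334, and 2029 CPM in WT Control and 1192 to 2012 with a median of 1698 CPM in WT T1D, a log2 fold change of -0.25 ± 0.13 (adjusted p = 0.270). Its lowest mice were A3905 and A3906, and 3 of 6 WT T1D values lay under the WT Control range. The TPM ratio of B2m to H2-K1 and H2-D1 together overlapped between groups, at 2.52 to 3.11 in WT Control and 2.49 to 3.41 in WT T1D.

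Of the 14 nonclassical class I genes tested, several of which encode ligands of NK and T cell receptors, 12 had negative log2 fold changes in WT. With edgeR H2-Q1 passed. H2-Q1 is scarce, with 27, 23, 21, 24, and 21 counts in WT Control, 5 to 16 in WT T1D, 5 to 11 in KO Control, and 8 to 25 in KO T1D. In CPM it was 1.48, 1.26, 1.19, 1.35, and 1.16 in WT Control and 0.287 to 0.901 with a median of 0.505 in WT T1D, so these groups did not overlap. The log2 fold change was -1.18 ± 0.32 (SE, adjusted p = 0.0494 with edgeR). With another normalization, a looser count filter, or hemoglobin genes left out, H2-Q1 no longer passed, nor without A3905 and A3906 (-1.31, adjusted p = 0.286). Leaving out each of the 23 mice in turn, it lost its call in 19 of the cases, with log2 fold changes of -1.36 to -1.04 and adjusted p of 0.0258 to 0.127 over all of them. H2-Q1 kept its call in 7 of 31 alternatives, among them DESeq2's Wald test (adjusted p = 0.0275).

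H2-Q4 was more abundant, with 90.3, 86.6, 88.2, 86.9, and 99.6 CPM in WT Control and 53.9 to 84.9 with a median of 68.2 CPM in WT T1D. The groups did not overlap, and the log2 fold change was -0.43 ± 0.14 (SE, adjusted p = 0.0771 with edgeR). DESeq2's Wald test called H2-Q4 (adjusted p = 0.0419). H2-Q9 and H2-Q7, close relatives of the Qa family, differed by -0.80 ± 0.30 (adjusted p = 0.124) and -0.44 ± 0.22 (adjusted p = 0.243). H2-T23, which encodes Qa-1, the ligand of an inhibitory NK cell receptor, had 84.0, 76.3, 68.0, 68.7, and 87.2 CPM in WT Control and 66.5 to 86.3 with a median of 71.6 CPM in WT T1D. Its groups overlapped widely, with a log2 fold change of -0.046 ± 0.082 (adjusted p = 0.787). H2-M3, which presents formylated bacterial peptides, differed by -0.16 ± 0.21 (adjusted p = 0.691). The other tested genes of this class did not pass either, with log2 fold changes of -0.39 for H2-T10, -0.33 for the pseudogene H2-T-ps, -0.31 for H2-Q8, -0.27 for H2-T22, -0.052 for H2-T24, 0.25 for H2-Q10, 0.27 for H2-M9, and -1.51 for H2-Q6, the last with an SE of 1.71. H2-Q10, known as a gene of liver, was highest in A3905 and A3906, at 31.6 and 22.8 CPM. H2-Ke6, with no MHC product, differed by -0.073 ± 0.11 (adjusted p = 0.751).

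The 3 main classical class II chains had log2 fold changes of -0.64 to -0.52 in WT, and none passed with edgeR. H2-Ab1, the beta chain of H2-A, had 314, 247, 216, 309.6, and 321 CPM in WT Control. In WT T1D it had 267, 225, and 205 CPM in the A17 mice and 91.0, 116, and 181 CPM in A3905, A3906, and A3909. Its log2 fold change was -0.64 ± 0.20 (SE, adjusted p = 0.0771 with edgeR). The 3 A17 mice were the highest of the group. H2-Aa, the alpha chain, had 301, 277, 220.5, 318, and 348 CPM in WT Control and 125 to 288 with a median of 214 CPM in WT T1D, a log2 fold change of -0.52 ± 0.18 (adjusted p = 0.0962). H2-Eb1 had 108, 113, 87.4, 114, and 132 CPM in WT Control and 40.8 to 111 with a median of 83.3 CPM in WT T1D, a log2 fold change of -0.52 ± 0.19 (adjusted p = 0.117). The groups overlapped for each chain, and H2-Eb2, a scarce relative, was at 0.43 ± 0.30 (adjusted p = 0.399).

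A3905 and A3906 were the lowest of all 23 mice for each chain. Without them the log2 fold change was -0.28 for H2-Aa, -0.36 for H2-Ab1, and -0.27 for H2-Eb1 (adjusted p = 0.488, 0.392, and 0.543 with edgeR). With IDs A36 to A39 only, where the WT T1D mice are A3905, A3906, and A3909, the values were -0.85, -1.07, and -0.88 (adjusted p = 0.0166, 0.0102, and 0.0201). With all 23 mice DESeq2's Wald test called H2-Aa and H2-Ab1 (adjusted p = 0.0477 and 0.0282) but not H2-Eb1 (adjusted p = 0.0696). The call thus depended on the choice of mice and on the test. Dendritic cell marker sums were lower in the 4 WT T1D mice other than A3905 and A3906 as well, 43.4 to 49.8 TPM against 51.8 to 62.4 TPM in WT Control. On TPM, however, the median log2 fold change of all genes in WT was -0.24 or -0.29, depending on the pseudocount. These sums are therefore relative to a shifted base, and a fall in dendritic cells cannot be read from them. The part of dendritic cells in the class II values was not tested.

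**Figure D2:**
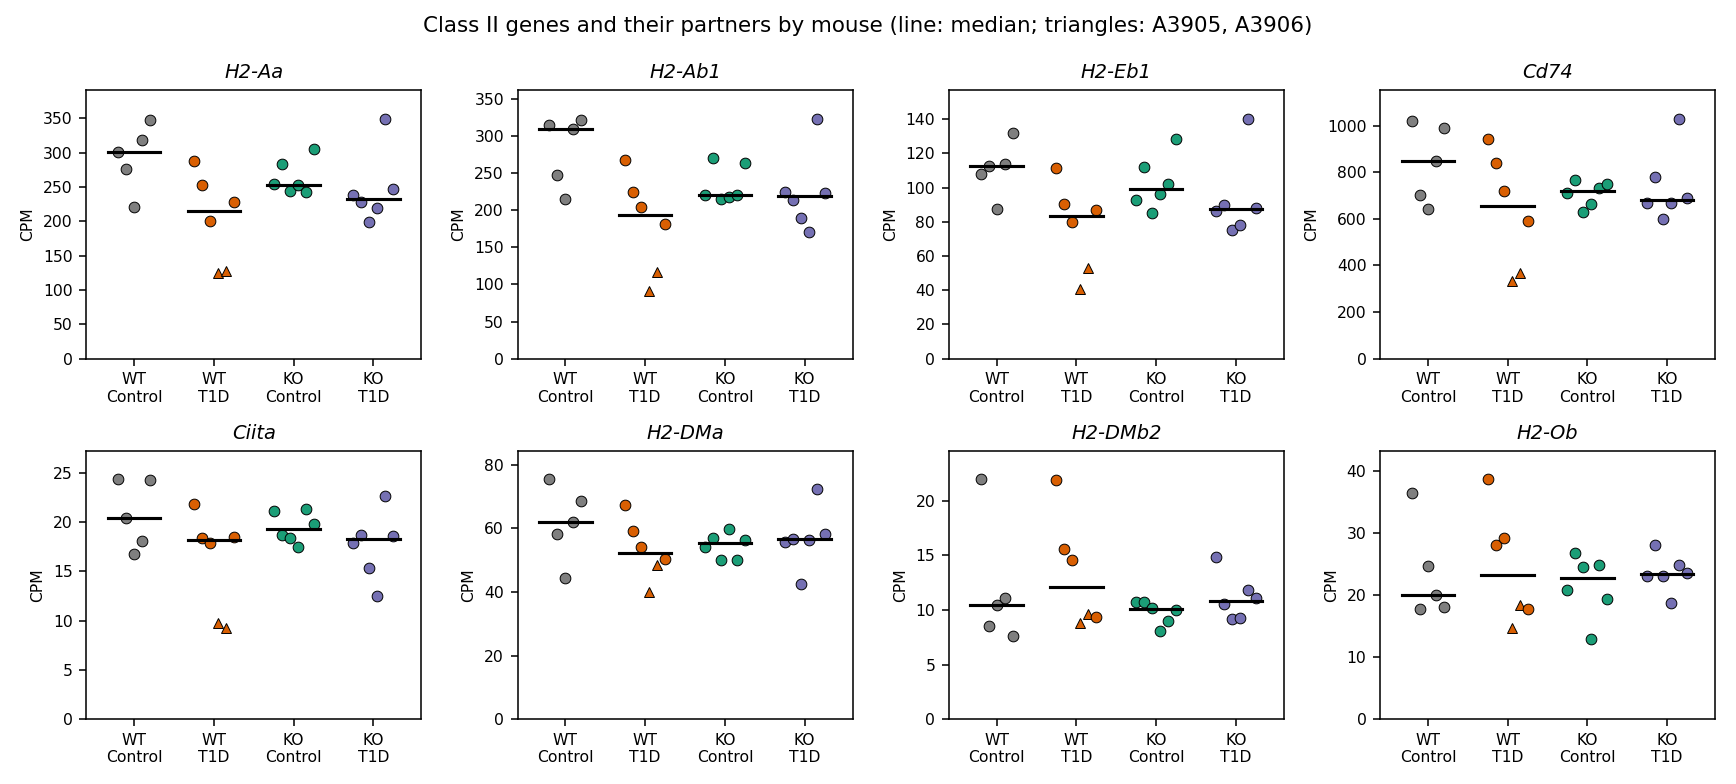
CPM of class II genes in each of the 23 mice, by group, with a line at each group's median and triangles for A3905 and A3906. For H2-Aa the triangles, at 125 and 127 CPM, lie below all other mice.

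The class II accessory genes divided in direction, and none passed. Ciita, the class II transactivator, had 24.3, 20.4, 16.8, 18.1, and 24.2 CPM in WT Control and 9.25 to 21.9 with a median of 18.1 CPM in WT T1D, a log2 fold change of -0.38 ± 0.18 (SE, adjusted p = 0.221 with edgeR). Cd74 had 1022, 702, 644, 848, and 990.4 CPM in WT Control and 333 to 945 with a median of 655 CPM in WT T1D, a log2 fold change of -0.41 ± 0.21 (adjusted p = 0.249). Both were lowest in A3905 and A3906, and without them the values were -0.12 for Ciita and -0.12 for Cd74. H2-DMa and H2-DMb1, chains of the peptide editor, differed by -0.21 ± 0.13 (adjusted p = 0.340) and -0.14 ± 0.099 (adjusted p = 0.4003).

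H2-DMb2, H2-Oa, and H2-Ob had values above 0 in WT, 0.16 ± 0.24 (adjusted p = 0.751), 0.14 ± 0.19 (adjusted p = 0.711), and 0.065 ± 0.23 (adjusted p = 0.900) (SE, edgeR). Each turned below 0 with IDs A36 to A39 only, to -0.015, -0.010, and -0.24. H2-Ob, a chain of H2-DO made mainly in B cells, had 28.1 to 38.7 CPM in the 4 A17 mice, Control and T1D together, and 12.9 to 28.1 CPM in the other 19. For H2-DMb2 the 4 A17 mice had 14.6 to 22.0 CPM and the others 7.66 to 14.9 CPM. The same 4 mice had the highest B cell marker sums, whose part in these values was not tested.

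Within the class II pathway the balance of chains was read as a ratio of TPM sums, which does not depend on how a library is scaled. The ratio of the H2-DM chains to H2-Aa, H2-Ab1, and H2-Eb1 together was 0.191, 0.145, 0.165, 0.138, and 0.135 in the 5 WT Control mice. In WT T1D it was 0.302 in A3905 and 0.305 in A3906, and 0.167 to 0.205 in the other 4. It was 0.146 to 0.168 in KO Control and 0.153 to 0.199 in KO T1D. A3905 and A3906 were thus above the other 21 mice, whose highest ratio was 0.205. The ratio of Cd74 to the 3 chains varied less, at 1.04 to 1.33 in WT Control and 1.122 to 1.40 in WT T1D. H2-Aa over H2-Ab1 was 1.08 to 1.55 over all mice.

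**Figure D3:**
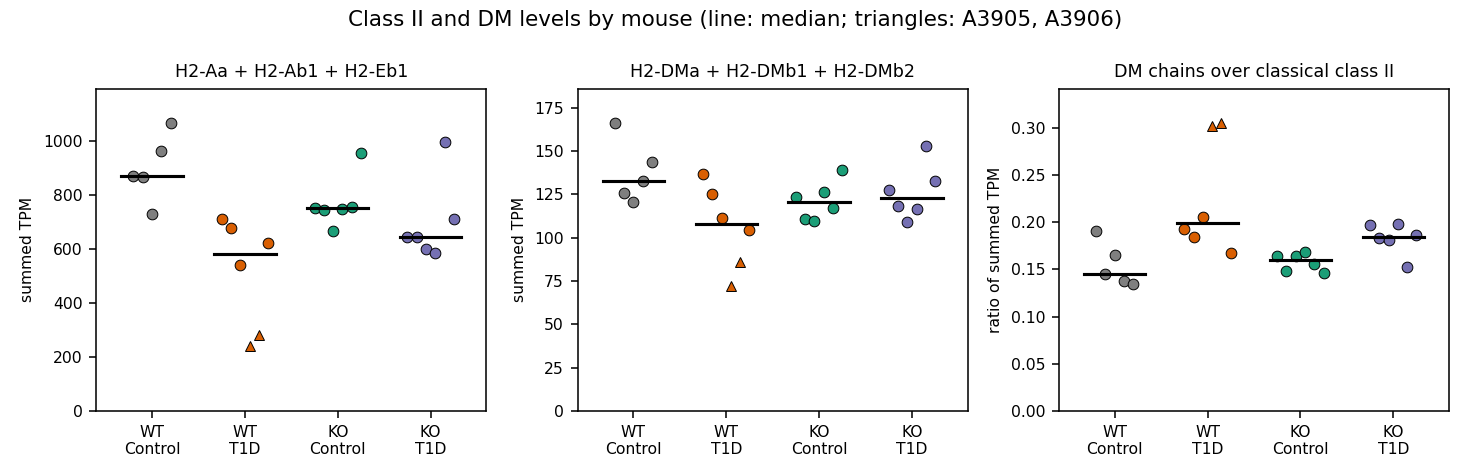
Summed TPM of class II chains and of H2-DM chains in each mouse, and their ratio, by group, with triangles for A3905 and A3906. The triangles have the lowest class II sums, 239.6 and 283 TPM, and the highest ratios, 0.302 and 0.305.

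The same comparison within mice labelled Sarm1-KO gave a median log2 fold change of 0.0029 over the 33 genes. Values ran from -0.76 for H2-Q6 to 0.76 for H2-Q1, both scarce. With edgeR 0 of the 33 genes passed, as did 0.0% of all genes, and DESeq2 and limma on TPM also called 0. At an unadjusted p under 0.05, 1 of the 33 was called, H2-Q1, which was higher (0.76 ± 0.32, SE), against 3.15% of all genes. A log2 fold change below 0 was found for 16 of the 33 against 50.6% of all genes. Nlrc5 was at -0.052 ± 0.14, H2-K1 at -0.0028 ± 0.11, and H2-D1 at 0.032 ± 0.099. H2-Ab1 was at -0.068 ± 0.19, H2-Aa at -0.096 ± 0.17, and Cd74 at 0.063 ± 0.20. The ranges overlapped, as for H2-K1 with 370.3 to 507 CPM in KO Control and 376 to 502 CPM in KO T1D, and for H2-Ab1 with 215 to 269.8 and 170.1 to 323 CPM. KO T1D mouse A3682 was the highest of its group for H2-Aa, H2-Ab1, and H2-Eb1, at 349, 323, and 140.2 CPM.

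**Figure D4:**
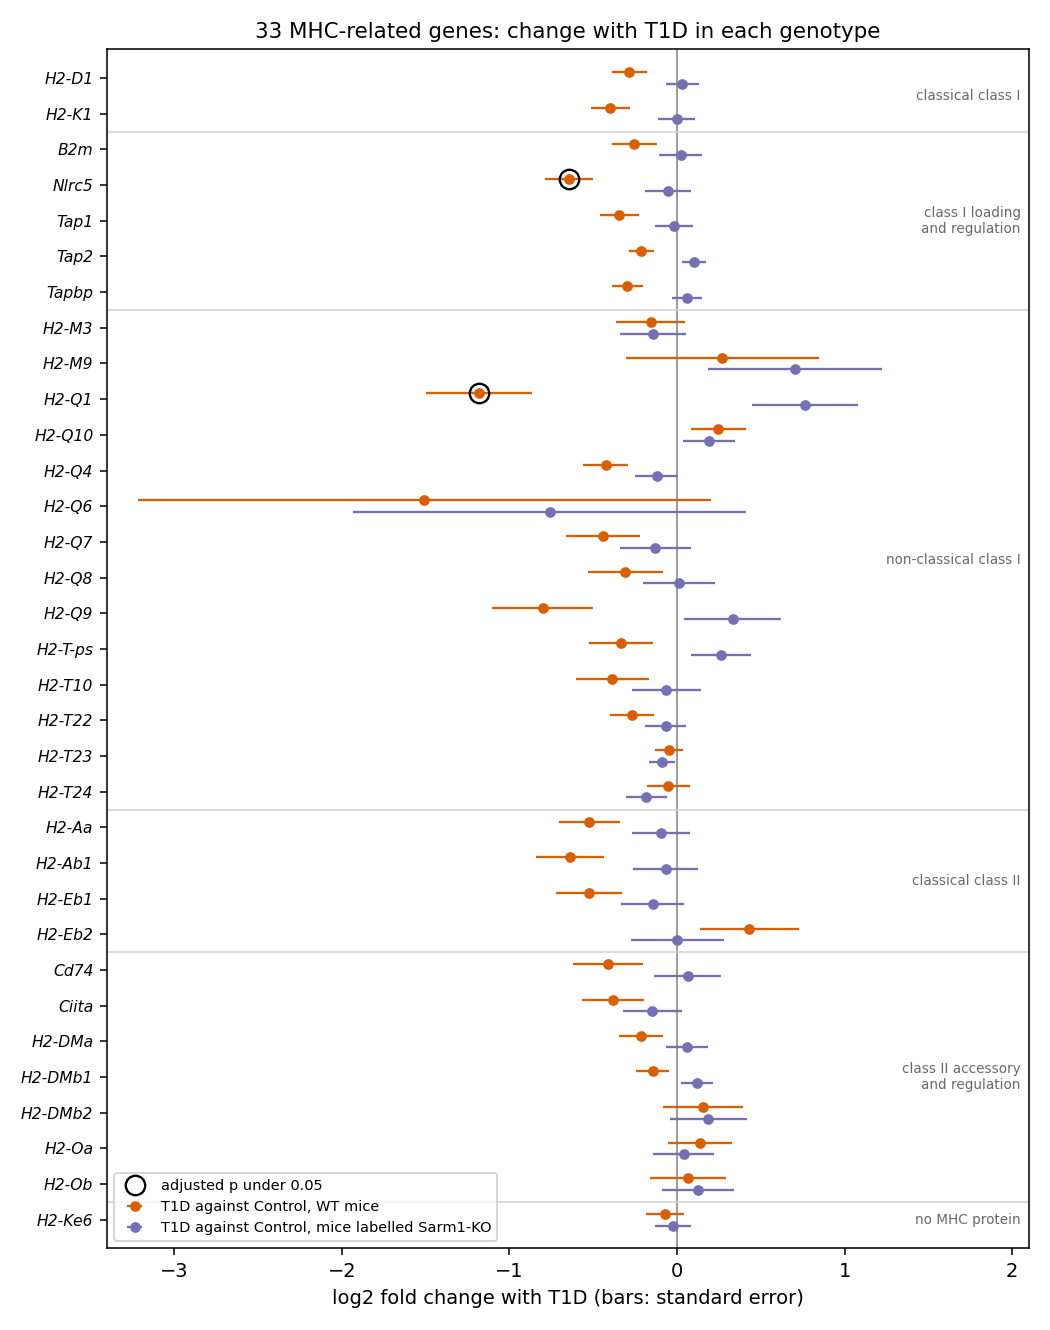
Log2 fold change with T1D (points, with bars of 1 SE) of the 33 tested genes in WT mice and in mice labelled Sarm1-KO, ordered by role. In WT 27 of 33 points lie below 0, and in mice labelled Sarm1-KO 16 of 33.

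Whether the change with T1D differed between genotypes was tested by the interaction term. With edgeR 0 of the 33 passed, as did 0.0% of all genes. DESeq2 called 0, and limma called H2-Q1 on log2(TPM + 1) and 0 on log2(TPM + 0.1). At an unadjusted p under 0.05, 8 of the 33 had a positive interaction and 0 a negative one, against 4.81% of all genes positive. Among the class I machinery these were Nlrc5 (0.59 ± 0.20, SE), Tapbp (0.36 ± 0.13), Tap2 (0.31 ± 0.11), H2-K1 (0.40 ± 0.16), and H2-D1 (0.32 ± 0.14). The others were H2-Q1 (1.94 ± 0.45), H2-Q9 (1.13 ± 0.42), and H2-T-ps (0.59 ± 0.26), and the adjusted p was 0.479 for all 8. The class II chains had interactions of 0.57 ± 0.28 (adjusted p = 0.495) for H2-Ab1, 0.43 ± 0.25 (adjusted p = 0.544) for H2-Aa, and 0.38 ± 0.27 (adjusted p = 0.614) for H2-Eb1. A difference between genotypes in the response to T1D was therefore not shown for any of the 33. Without A3905 and A3906, 5 had a positive interaction at an unadjusted p under 0.05, Nlrc5, Tapbp, Tap2, H2-Q1, and H2-Q9, against 2.46% of all genes.

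Averaged over genotypes, T1D gave 0 calls among the 33 with edgeR, against 0.111% of all genes. DESeq2 called Nlrc5, against 1.73% of all genes, and limma called 13 on log2(TPM + 1) and 11 on log2(TPM + 0.1), against 7.7% and 6.62%. Unadjusted, at p under 0.05, 8 were lower, Nlrc5, Tap1, H2-K1, H2-Q4, H2-Aa, H2-Ab1, H2-Eb1, and Ciita, against 7.75% of all genes. The smallest adjusted p was that of Nlrc5, with a log2 fold change of -0.35 ± 0.099 (SE, adjusted p = 0.117). A rule adapted from the study's for genes altered in both genotypes required a change beyond 0.35 on the log2 scale in each, an unadjusted p under 0.01 for diabetes, and an interaction p of at least 0.05. Here the change also had to have the same sign, and the diabetes term was the average over genotypes. By it 0 of the 33 qualified, against 0.62% of all genes.

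Without diabetes, KO Control was compared with WT Control. With edgeR 0 of the 33 passed, against 0.0278% of all genes, while DESeq2 called 0 and limma called H2-Q1 on log2(TPM + 1) and 0 on log2(TPM + 0.1). At an unadjusted p under 0.05, 4 differed, against 4.8% of all genes. H2-Q1 was at 0.271 to 0.564 with a median of 0.463 CPM in KO Control, below all WT Control mice, with a log2 difference of -1.52 ± 0.32 (SE, adjusted p = 0.202). Tap2 was at 57.3 to 64.8 with a median of 59.1 CPM in KO Control, with 4 of 6 values under the WT Control range and a log2 difference of -0.28 ± 0.076 (adjusted p = 0.999). H2-Q9 differed by -0.63 ± 0.30 (adjusted p = 0.999). H2-T24 was the gene with a higher value, at 48.1 to 59.9 with a median of 58.5 CPM in KO Control against 50.8, 42.5, 39.1, 42.4, and 44.8 CPM in WT Control, a log2 difference of 0.37 ± 0.13 (adjusted p = 0.999). Tapbp, not among these 4, did not overlap either, at 123 to 132 CPM in KO Control against 139.5 to 155 CPM in WT Control. Its log2 difference was -0.17 ± 0.092 (unadjusted p = 0.077, adjusted p = 0.999 with edgeR). The share of all genes whose groups did not overlap in this comparison was not computed, so for H2-Q1 and Tapbp this only describes the values.

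With diabetes, KO T1D was compared with WT T1D, the same WT T1D mice that enter the comparison within WT. With edgeR 0 of the 33 passed, against 0.0905% of all genes. DESeq2 called Nlrc5, against 1.66% of all genes, and limma called 8 with either pseudocount, against 8.12% and 8.25%. Before adjustment, at p under 0.05, 6 were higher in KO T1D, Nlrc5, H2-K1, Tap1, Tapbp, H2-T22, and H2-T-ps, against 8.44% of all genes. Nlrc5 differed by 0.54 ± 0.14 (SE, adjusted p = 0.0900), with 3 of 6 KO T1D mice above every WT T1D mouse. Without A3905 and A3906 this difference was 0.37 (adjusted p = 0.598). H2-K1 differed by 0.27 ± 0.11 (adjusted p = 0.237), H2-Ab1 by 0.31 ± 0.19 (adjusted p = 0.418), and Cd74 by 0.23 ± 0.20 (adjusted p = 0.570).

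Genes that work with the MHC were read from lists chosen with earlier results of these data known. Of 14 GTPases that interferon gamma induces, 5 fell with T1D in WT, Gbp2 (-0.87 ± 0.21, SE), Gbp3 (-0.69 ± 0.16), Gbp4 (-0.81 ± 0.21), Irgm2 (-0.52 ± 0.12), and Tgtp1 (-0.94 ± 0.23), with adjusted p of 0.0418 to 0.0460 with edgeR. Of all genes tested, 0.828% passed in the lower direction in WT. All 14 had values below 0 in WT, against 51.9% of all genes, with a median of -0.60. In mice labelled Sarm1-KO 13 of the 14 were below 0, against 50.6% of all genes, with a median of -0.17, and 0 passed. Averaged over genotypes, 11 of the 14 were lower at an unadjusted p under 0.05, against 7.75% of all genes, and 0 passed. None of them passed the interaction test, and without A3905 and A3906 0 of the 14 passed in WT. Irf1, an interferon-induced factor that acts on MHC promoters, was at -0.25 ± 0.098 (adjusted p = 0.129). It is 1 of a list of 11 such factors, whose WT median was -0.0042, with 6 below 0. Nfyc of that list was at 0.22 ± 0.073 (adjusted p = 0.0885). Ifng itself was too low to test, and its spread was about as large as its mean in WT. It was at 0.377 ± 0.396 CPM (SD) in WT Control and 0.120 ± 0.159 in WT T1D. KO Control had 0.236 ± 0.138 CPM and KO T1D 0.188 ± 0.133.

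The other lists of antigen presentation had no call in WT with edgeR, where 2.33% of all genes passed. Peptide supply to class I had 0 of 10, with Psmb9 at -0.38 ± 0.11 (adjusted p = 0.0662) and Pdia3 at -0.24 ± 0.092 (adjusted p = 0.122), where Psmb9 is a subunit of the immunoproteasome. Interferon gamma signalling had 0 of 6, with Socs1 at -0.59 ± 0.17 (adjusted p = 0.0562) and Ifngr2 at -0.21 ± 0.096 (adjusted p = 0.191). Class II antigen processing had 0 of 7, with Ctss at -0.29 ± 0.085 (adjusted p = 0.0571) and Lgmn at -0.11 ± 0.078 (adjusted p = 0.401), where Ctss encodes cathepsin S, a protease that trims the invariant chain. Costimulation had 0 of 6, with Cd86 at -0.30 ± 0.11 (adjusted p = 0.111) and Cd40 at -0.40 ± 0.29 (adjusted p = 0.421). The lipid presenter Cd1d1 was at -0.63 ± 0.22 (adjusted p = 0.106) and Mr1, which presents vitamin metabolites, at -0.054 ± 0.16 (adjusted p = 0.876). At an unadjusted p under 0.05 they had 3, 2, 2, 1, and 1 genes lower in WT, in the order named, against 11.2% of all genes. DESeq2 called Psmb9, Socs1, and Ctss, each lower, and 0 in the last 2 lists.

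Markers of the cells in bone were given the same test in WT, where 2.33% of all genes passed, 0.828% in the lower direction. At that share, 0 calls among 6 to 8 genes says little about a list. B cell markers had 0 of 7 past the threshold, with a median log2 fold change of 0.061, Cr2 at 0.063 ± 0.24 (adjusted p = 0.908) and Fcer2a at 0.18 ± 0.30 (adjusted p = 0.779). Dendritic cell markers had 0 of 8, with a median of -0.30, Itgax at -0.39 ± 0.15 (adjusted p = 0.131) and Siglech at -0.65 ± 0.26 (adjusted p = 0.140). Macrophage and monocyte markers had 0 of 8, with a median of -0.10, Adgre1 at -0.32 ± 0.11 (adjusted p = 0.0909) and Vcam1 at 0.35 ± 0.10 (adjusted p = 0.0544). Of 6 T and NK cell markers, with a median of -0.33, Cd4 fell (-0.67 ± 0.17, adjusted p = 0.0458), while Nkg7 was at -0.00083 ± 0.14. Cd4 was also lower in mice labelled Sarm1-KO (-0.49 ± 0.16), without passing there, and passed averaged over genotypes (-0.58 ± 0.12, adjusted p = 0.0448 with edgeR). In mice labelled Sarm1-KO 2 of the 6 were lower at an unadjusted p under 0.05 and 1 higher, Klrb1c (0.31 ± 0.14), against 3.15% of all genes. A fall in T cells is not read from Cd4 alone. Of 7 osteoblast and osteocyte markers Ibsp, a bone matrix protein, fell in WT (-0.78 ± 0.15, adjusted p = 0.0236). Of 9 erythroid markers 5 rose, among them the membrane protein gene Slc4a1 (0.64 ± 0.14, adjusted p = 0.0367). Neutrophil markers had 0 of 6, with a median of 0.24. Hemoglobin genes held 12.3% to 21.4% of counts in WT T1D and 9.73% to 13.9% in WT Control. DESeq2 also called Cd209a lower, Vcam1 higher, and all 9 erythroid markers higher. No marker was at 0 in all mice. The part of these differences in the MHC values was not tested. None of the WT calls on these lists was made without A3905 and A3906.

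The mice used set the size of the WT values. Of the 23 genes described in full, 18 had a log2 fold change smaller in size without A3905 and A3906, and 19 a larger one with IDs A36 to A39 only. With the latter mice 12 of the 33 genes passed with edgeR, among 2211 of all genes. They were Nlrc5, H2-K1, H2-D1, Tap1, Tapbp, H2-Q4, H2-T22, H2-Aa, H2-Ab1, H2-Eb1, Cd74, and Ciita, and H2-Q1 was at -1.01 (adjusted p = 0.0808). Cd74 ran from -0.12 without the pair to -0.87 with these IDs, whereas Tap2 was at -0.26 and -0.17. The A17 series held 1 WT Control mouse, too few for a value within it.

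**Figure D5:**
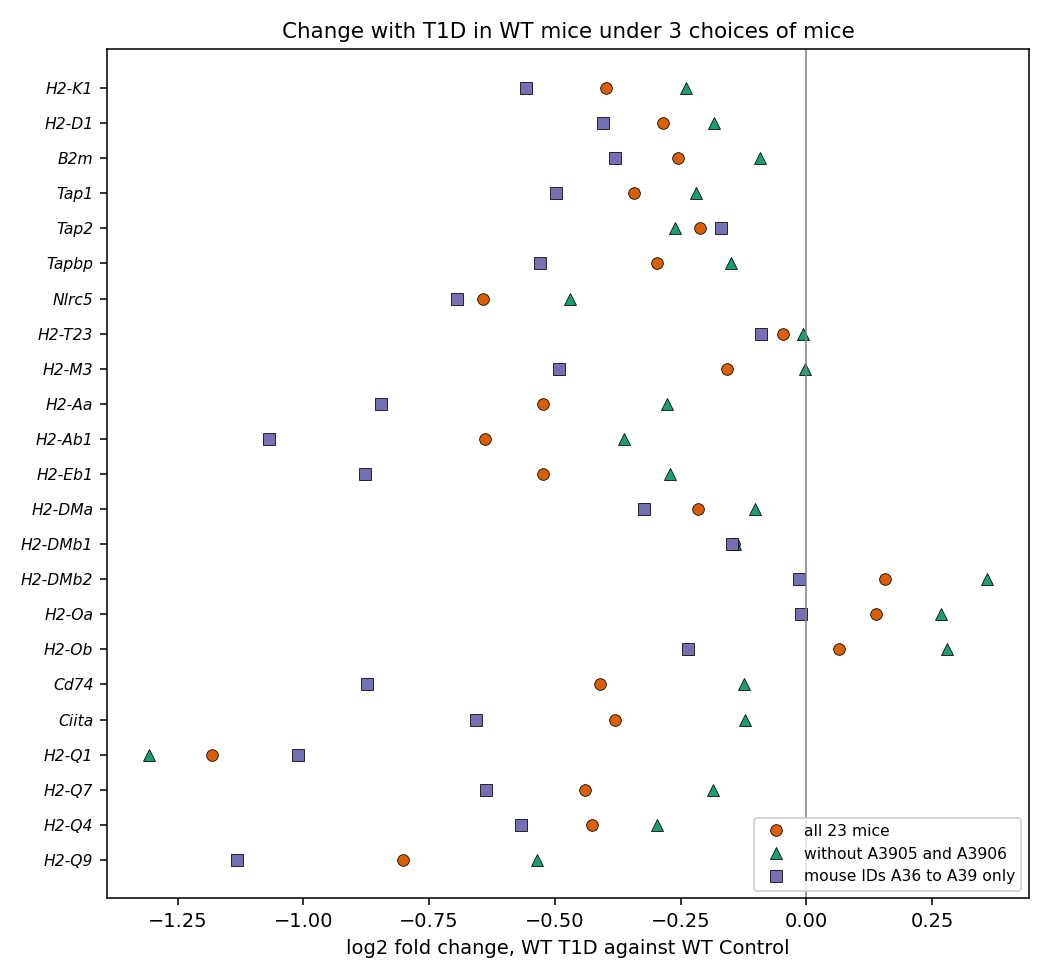
Log2 fold change of WT T1D against WT Control for the 23 genes described in full, with all mice, without A3905 and A3906, and with IDs A36 to A39 only. H2-Ab1 lies at -0.64, -0.36, and -1.07 under the 3 choices.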

How the data were processed

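RNA from 23 mice was sequenced with oligo dT selection on DNBSEQ (100-base paired reads). Per the labels and methods the authors filtered reads with SOAPnuke, aligned them with HISAT and Bowtie2 to GRCm38.p6 (versions not given in the sources used here), and deposited RSEM expected counts per gene, rounded to whole numbers, and TPM values from the sequencing provider. All columns were mapped to mice by their labels. Counts were tested with edgeR 4.0.16 in R 4.3.3 (TMM, quasi-likelihood, 1 mean per group, all 23 mice), for genes that reached 10 counts in 5 or more mice, with Benjamini-Hochberg adjustment. SE is the log2 fold change divided by the root of F. Of 55.0 pairs of mice within groups none agreed within sampling noise (chi-square per gene 10.9 or more). Each library is 1 mouse, so p-values measure the spread between mice. Alternatives were DESeq2 1.42.0 (size factors alone, or the Wald test), limma 3.58.1 on TPM with pseudocounts of 1 and 0.1, any counts in at least 5 mice, no hemoglobin genes, mouse IDs A36 to A39, no A3905 and A3906, and leaving out each mouse. The members and lists were chosen with earlier results of these data known. Full values are given for the main genes of each role, for genes that passed, and for the 3 of each role with the largest average change among those with a mean of at least 1 CPM. H2-Q8, H2-Q10, H2-M9, H2-T10, H2-T22, H2-T24, H2-T-ps, H2-Eb2, and H2-Ke6 were added after their values were seen, as were the DESeq2 counts on the lists. The list of factors that act on MHC promoters is given in part, and 1 of its genes is not reported here. Promoter windows are from RefSeq (GRCm38.p6), and figures were drawn with matplotlib 3.10.9.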

Additional observations from a re-analysis of the deposited data

Results flagged for a closer look

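In 8 of 112 groups of values, 1 mouse lay farther from the others than Dixon's criterion allows, and chance alone marks about 1 in 20 groups. KO T1D mouse A3682 accounted for 4 of them. Its H2-Aa was 349 CPM with the next mouse at 246, its H2-Ab1 323 with the next at 225, its H2-Eb1 140.2 with the next at 89.7, and its summed class II chains 997 TPM with the next at 713. In KO Control, A3766 had the highest class II sum, 954 TPM with the next at 754, and A3672 the highest H2-Q9, 16.8 CPM with the next at 9.49. In WT Control, A1757 had the highest H2-DMb2, 22.0 CPM with the next at 11.1, and A3907 the highest H2-Q4, 99.6 CPM with the next at 90.3.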

How the results depend on the processing

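Of the 33 genes, the number passing with T1D in WT was 2, against 2.33% of all genes. It became 1 with DESeq2's size factors, 1 with the looser filter, and 1 without hemoglobin genes, Nlrc5 in each case. Of all genes 2.21%, 1.13%, and 2.03% passed in these settings. It was 7 with DESeq2, 24 and 24 with limma on log2(TPM + 1) and log2(TPM + 0.1), 12 with IDs A36 to A39 only, and 0 without A3905 and A3906, against 6.98%, 35.9%, 36%, 15.5%, and 0% of all genes. On TPM the median of all genes was -0.24 or -0.29 and that of the tested members -0.56 or -0.58, so those calls are relative to a shifted base. The 7 genes called by DESeq2 were Nlrc5, H2-Q1, H2-K1, Tapbp, H2-Q4, H2-Aa, and H2-Ab1. Averaged over genotypes the number was 0 and became 1 with DESeq2, 13 and 11 with limma, and 4 with IDs A36 to A39, against 1.73%, 7.7%, 6.62%, and 3.75% of all genes. Between genotypes in T1D it was 0 and became 1, 8 and 8, and 9 in the same settings, against 1.66%, 8.12%, 8.25%, and 10.8%. The interaction and the genotype comparison in Control each became 1 with limma on log2(TPM + 1). T1D in mice labelled Sarm1-KO and genes altered in both genotypes stayed at 0 in every alternative run. The 14 genes lower in WT at an unadjusted p under 0.05 became 26 and 26 with limma and 7 without A3905 and A3906 (all genes 48.4%, 48.7%, and 5.62%), and the 8 positive interactions became 19 and 18 with limma, 13 with IDs A36 to A39, and 5 without the pair (all genes 22.1%, 22.2%, 11.3%, and 2.46%). These 2 counts were chosen after seeing the data. Leaving out each of the 23 mice in turn gave 0 to 7 in WT, 0 to 1 on average, 0 to 1 between genotypes in T1D, 12 to 18 lower at an unadjusted p under 0.05, and 5 to 12 positive interactions. The WT number was 0 without A3767, A3903, A3904, A3907, A1787, A3905, or A3906, 5 without A1764, and 7 without A1758, and the 2 others became 1 without A3909. The shares of all genes with 1 mouse left out are not given here. These counts therefore describe the runs and are not read as results about the members. Of the 23 genes described in full, 19 kept the sign of their WT value in every alternative, and H2-DMb2, H2-Oa, H2-Ob, and H2-T23 did not. The cause of these changes was not tested. No paired analysis was possible because the groups share no mouse numbers.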
